A study of Mus musculus with 4 samples.

Results

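Genes that cells switch on when MAP kinases are active were followed in early osteoclast precursors that lack MYC. They are the dual-specificity phosphatases Dusp1, Dusp2, Dusp4, Dusp5 and Dusp6, the RAS pathway inhibitors Spred1 and Spred2, the transcription factors Egr1 and Egr2, and Ier3. The 10 genes were taken by symbol from a count table of 28443 genes, and all 10 had enough counts to be tested, among 13436 tested genes. The cells were bone marrow-derived macrophages (BMDMs) from mice 8 weeks old, cultured with M-CSF and stimulated with RANKL at 50 ng/ml for 1 day. RANKL is the cytokine that starts osteoclast differentiation, and M-CSF keeps macrophages alive. There were 2 control libraries, from mice of the strain labelled LysM cre and genotype WT (MYC-WT, the control pair), and 2 libraries from mice labelled MYC f/fLysM cre and genotype MYC cKO (MYC-deficient). Both genotypes thus carried LysM-Cre, which is expressed from the lysozyme gene Lyz2 in myeloid cells, and both received RANKL, so the comparison is of genotype within RANKL-treated cells. No source used here gives the number of mice behind each library. Replicates are called biological, and p-values measure the spread between these samples.

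The MAP kinases ERK, JNK and p38 carry signals from receptors such as those for M-CSF and RANKL to the nucleus. ERK is reached through RAS, RAF and MEK, and one of its early effects is to switch on its own inhibitors. The DUSP phosphatases remove the activating phosphates from MAP kinases, and the SPRED proteins act upstream by restraining RAS and RAF. EGR1 and EGR2 are zinc finger factors induced within minutes by ERK through serum response factor (SRF), and IER3 is an early-response protein that affects cell survival. ERK and p38 signals are known to be used in osteoclast differentiation, and EGR2 is known in macrophages as a factor of alternative activation.

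Total counts per library ranged from 27544806 to 35794698. Values are given as CPM, the counts of a gene scaled to the library total, and intervals of single counts cover counting error only. The deletion was visible in Myc, which had 7656 and 7284 counts in the control pair of libraries and 633 and 667 in the MYC-deficient pair, an 11.3-fold difference (edgeR quasi-likelihood test, adjusted p = 0.00711). Macrophage markers were abundant, and the 10 listed summed to 3543 to 4093 CPM in MYC-WT and 5551 to 5976 CPM in MYC-deficient cells, although Lyz2 itself was at 9.30 to 19.0 CPM in all 4 libraries. Of the 12 listed osteoclast markers, Calcr, the calcitonin receptor of mature osteoclasts, had no count in any library, and 4 of the 11 tested were called lower and 1 higher. Summed markers of monocytes were at 68.4 and 32.7 CPM in replicates 1 and 2 of MYC-WT and at 294 and 167 CPM in those of MYC-deficient cells. Ccr2, 1 of these markers, was at 17.0 and 11.7 CPM and at 147 and 106 CPM. Summed markers of neutrophils were at 117 and 53.1 CPM and at 324 and 139 CPM. Both sums were higher in replicate 1 of each genotype. Called higher in MYC-deficient cells were 4 of 10 macrophage markers, 2 of 9 monocyte markers (Ccr2 and Fn1), 1 of 11 tested neutrophil markers (Mmp8) and 2 of 8 tested dendritic cell markers (Cd209a and Ccl22). These counts stand beside the 6.06% of all tested genes called higher and 9.91% called lower. The 8 B cell markers summed to 15.2 and 9.50 CPM in the control pair and 19.1 and 19.0 CPM in the MYC-deficient pair, with Ighm at 7.99 to 15.5 CPM and Ebf1 at 0 in all 4 libraries. The 9 T or NK cell markers summed to 1.52 to 5.53 CPM, with Cd4 at 0.944 to 4.60 CPM and Cd3d and Cd3e at 0 in all 4 libraries. The stromal markers Col1a1 and Col1a2 had 98 and 70 counts in MYC-deficient replicate 1 and 0 in each other library. Runx2, the 1 tested gene of the 9 stromal or osteoblast markers, had 105 and 97 counts in the control pair. In the MYC-deficient pair Runx2 had 354 and 304 counts. It was called higher (log2 fold change 1.72, edgeR quasi-likelihood test, adjusted p = 0.00993). Whether these other cells contribute to any result below was not tested, and in bulk RNA fewer cells of a type and less RNA per cell cannot be told apart.

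Egr2 rose and Dusp2 fell in MYC-deficient cells, and the other 8 genes did not pass the test. Egr2 was 2.94-fold higher and Dusp2 was 2.77-fold lower. The comparison used edgeR's quasi-likelihood test, with a call where the p adjusted over all tested genes was under 0.05 and the fold change over 1.5. By that rule 16.0% of all tested genes were called, 6.06% higher and 9.91% lower, so the 2 calls among 10 genes are a share close to that of the transcriptome. Levels of the genotypes did not overlap for 5 of the 10 genes, higher for Dusp1, Dusp4, Dusp6 and Egr2 and lower for Dusp2, against 63.4% of all tested genes (27.5% higher and 35.9% lower). The median log2 fold change was 0.17 over the 10 genes and -0.01 over all genes tested. At an unadjusted p under 0.05 there were 4 of the 10 genes, Dusp1, Dusp2, Dusp6 and Egr2, and 4882 of the 13436 tested genes.

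**Figure D1:**
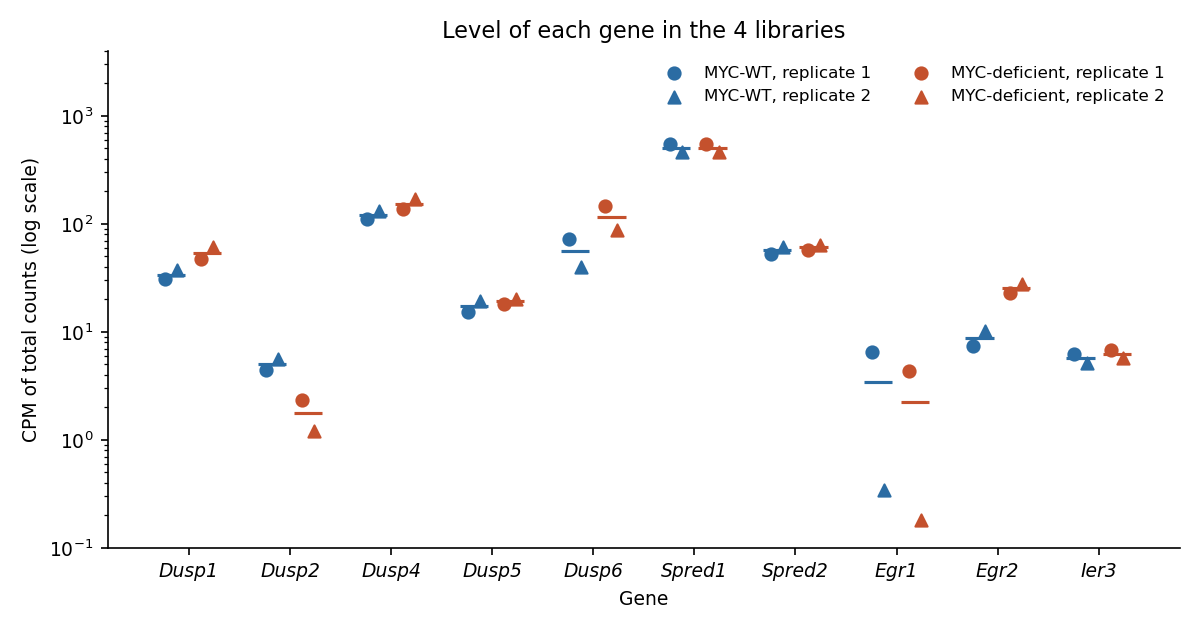
Level of each of the 10 genes in CPM of total counts (log scale) in the 4 libraries, with circles for replicate 1, triangles for replicate 2 and a bar at the mean of each genotype. Egr2 lies higher and Dusp2 lower in both MYC-deficient libraries, while both replicate 2 libraries of Egr1 lie far below both replicate 1 libraries.

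Start-site sequences are shown for the genes with the smallest p-values and for the SRF-type elements of the set, since Dusp1, Dusp2 and Egr2 share a 6-base motif there. RefSeq windows of 300 bases, 250 before and 50 after a start site (build GRCm38.p6, of which mm10 is the browser name), matched 8 of the 10 genes in 12 windows, with 7 genes having a single window and Egr2 having 5 windows of its several start sites. No window was used for Dusp4 and Egr1. Each window was searched on both strands for the E-box CACGTG, which MYC binds with MAX, for the CArG box, which SRF binds, and for the cyclic AMP response element TGACGTCA, which CREB binds. The matches did not overlap each other. Capitals mark the matches, and all stretches read 5′ to 3′ on the gene's strand.

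Dusp2, E-box, chr2:127336010-127336059, plus strand: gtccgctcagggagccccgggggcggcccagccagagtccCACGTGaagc

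Egr2, E-box, chr10:67535432-67535481, plus strand: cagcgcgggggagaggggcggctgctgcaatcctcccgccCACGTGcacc

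Dusp1, cyclic AMP response element and E-box, chr17:26508589-26508655, minus strand: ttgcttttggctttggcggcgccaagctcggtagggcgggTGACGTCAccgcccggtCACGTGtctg

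Egr2, CArG box, chr10:67537454-67537507, plus strand: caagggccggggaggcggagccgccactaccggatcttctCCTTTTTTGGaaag

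Egr2, CArG box, chr10:67537757-67537810, plus strand: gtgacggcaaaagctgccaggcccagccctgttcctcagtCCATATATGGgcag

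Dusp5, paired CArG boxes, chr19:53529023-53529086, plus strand: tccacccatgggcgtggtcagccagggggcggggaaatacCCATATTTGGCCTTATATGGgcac

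The E-box was found in 3 of the 12 windows, 1 each of Dusp1, Dusp2 and Egr2, and in 7.15% of all 32851 RefSeq windows. Of these genes Dusp2 was called lower, Egr2 was called higher and Dusp1 was not called. The E-box of Dusp2 lies 109 bases before the RefSeq start site of its window and that of Dusp1 126 bases. That of Egr2 lies 27 bases before the RefSeq start at 67535499 and, from 67535472 to 67535477, spans the gene start of the deposited table at 67535475. The CArG box was found in 5 of the 12 windows, 1 of Dusp5 and 4 of Egr2, of which 3 overlap and hold the same box, and in 1.63% of all windows. In Egr2 these boxes lie before start sites farther downstream than the one with the E-box. The cyclic AMP response element was found in 1 of the 12 windows, that of Dusp1, and in 1.79% of all windows. These are matches of letters, and binding was not measured.

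Egr2 (ENSMUSG00000037868) lies on chromosome 10 of mm10 from 67535475 to 67542188 on the plus strand. It is the zinc finger factor also called Krox20. The control pair had 246 and 295 counts, or 7.40 and 10.1 CPM, and the MYC-deficient pair had 824 and 757 counts, or 23.0 and 27.5 CPM. Both MYC-deficient libraries were more than 2-fold above the higher MYC-WT library, with ratios from 2.27 to 3.71 over the 4 pairs of libraries. Mean levels were 8.76 ± 1.92 CPM (SD, n = 2) and 25.3 ± 3.16 CPM (SD, n = 2). On the log2 scale the difference was 1.55 (SE 0.21, 95% interval 1.01 to 2.10, edgeR quasi-likelihood test, adjusted p = 0.0136). Egr2 was the only 1 of the 10 genes that stayed called with each library left out in turn, with log2 fold changes from 1.32 to 1.82 and adjusted p from 0.00334 to 0.0399 in the same test. The summed markers of monocytes and neutrophils were also higher in both MYC-deficient libraries, and their part in the level of Egr2 was not tested.

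Egr1 behaved differently from its paralog, with levels that differed far more between replicates than between genotypes. EGR1 is the best known immediate-early product of ERK signaling. The control pair had 217 and 10 counts and the MYC-deficient pair 154 and 5. Replicate 1 was thus 19.0-fold above replicate 2 in MYC-WT cells, at 6.53 and 0.343 CPM, and 23.7-fold above it in MYC-deficient cells, at 4.30 and 0.182 CPM. By exact Poisson intervals the 2 low values lay between 0.165 and 0.631 CPM and between 0.0589 and 0.424 CPM, far below both replicate 1 libraries. Only 4 of 13436 tested genes differed at least 10-fold between the replicates in the same direction in both genotypes, and Egr1 was 1 of these 4, the others being Gm24245, Vma21-ps and Rpl30-ps10 (named after their values were seen). The log2 fold change between the genotypes was -0.56 with a 95% interval from -4.36 to 3.24 (edgeR quasi-likelihood test, adjusted p = 0.822). Leaving out control replicate 1 reversed it to 2.71 and leaving out MYC-deficient replicate 2 to 0.33, whereas it was -1.48 without control replicate 2 and -4.14 without MYC-deficient replicate 1. Each of these fits leaves 1 genotype with a single replicate, so the gap between replicates enters the difference. Between libraries of equal number the ratios of MYC-deficient to MYC-WT were 0.659 for replicate 1 and 0.529 for replicate 2, though no source says that these are paired. A genotype difference in Egr1 was not detectable in these libraries.

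Other early genes did not share the gap of Egr1. Of 43 tested immediate-early genes outside the 10, 0 were at least 2-fold higher in replicate 1 in both genotypes and 1 was at least 2-fold higher in replicate 2. Among all tested genes these counts were 157 and 109. The median log2 ratio of replicate 1 to replicate 2 over the 43 genes was -0.06 in MYC-WT and -0.03 in MYC-deficient cells. Among the 10 genes, Egr1, Dusp6, Spred1 and Ier3 were higher in replicate 1 in both genotypes, 5 genes were higher in replicate 2 in both, and Dusp2 was higher in replicate 2 of the control pair and in replicate 1 of the MYC-deficient pair.

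**Figure D2:**
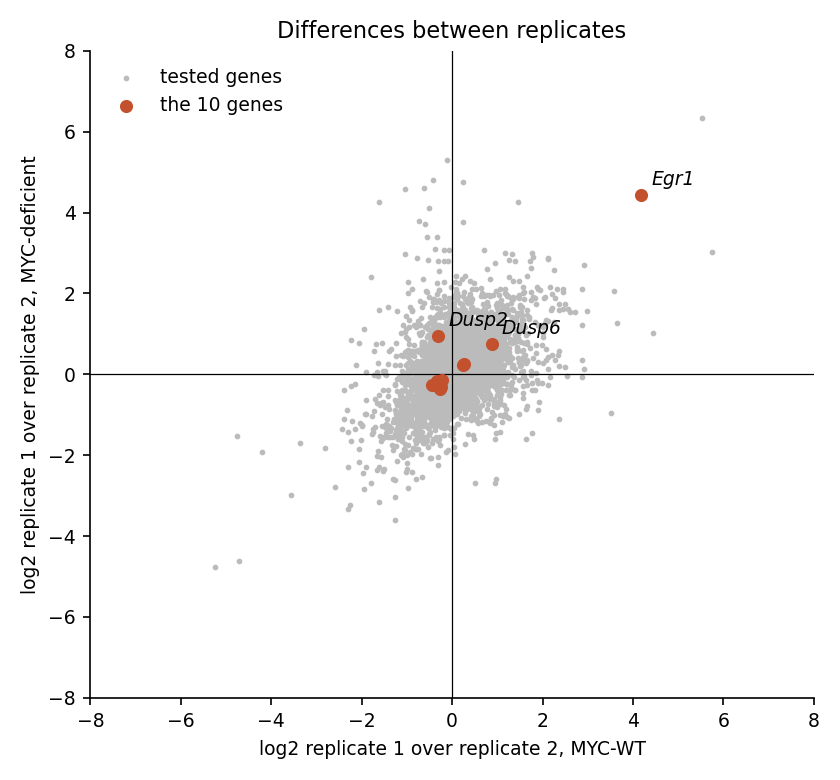
Log2 ratio of replicate 1 to replicate 2 in MYC-WT (horizontal axis) and MYC-deficient cells (vertical axis) for the 13436 tested genes, with the 10 genes in colour. Egr1 stands at 4.18 and 4.43, in the sparse upper right corner, and Dusp6 at 0.87 and 0.74.

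Of the nuclear phosphatases Dusp2 passed the test, and Dusp1, Dusp4 and Dusp5 did not. Dusp2 (ENSMUSG00000027368, also called PAC1), an inducible phosphatase of leukocytes, lies on chromosome 2 from 127336159 to 127338376. The control pair had 148 and 162 counts, or 4.45 and 5.56 CPM, and the MYC-deficient pair had 83 and 33 counts, or 2.32 and 1.20 CPM. Both MYC-deficient libraries were below both MYC-WT libraries, and they differed 1.94-fold from each other. Its difference was -1.47 on the log2 scale (SE 0.37, edgeR quasi-likelihood test, adjusted p = 0.0485), and the 95% interval from -2.40 to -0.54 reaches 1.45-fold lower. This call sat at the threshold. It was lost with RLE scaling (adjusted p = 0.0508), without either control library (adjusted p = 0.102 without replicate 1 and 0.206 without replicate 2) and when MYC-deficient replicate 2 was left out (adjusted p = 0.0668), all in edgeR's quasi-likelihood test, while the log2 fold change stayed negative, from -1.99 to -1.10, in every alternative run.

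Dusp1 (ENSMUSG00000024190), the MKP-1 phosphatase that acts chiefly on p38 and JNK in macrophages, lies on chromosome 17 from 26505590 to 26508519 on the minus strand. The control pair had 1016 and 1078 counts, or 30.6 and 37.0 CPM, and the MYC-deficient pair had 1688 and 1684 counts, or 47.2 and 61.1 CPM. The genotypes did not overlap, and the lower MYC-deficient library was 1.28-fold above the higher MYC-WT library. The difference of 0.71 on the log2 scale (SE 0.19, 95% interval 0.24 to 1.18) did not pass (edgeR quasi-likelihood test, adjusted p = 0.0537). Dusp1 was called by edgeR's quasi-likelihood test on the authors' genes (adjusted p = 0.0496) and with no filter (adjusted p = 0.000151). The likelihood ratio test (adjusted p = 0.0095), DESeq2 (adjusted p = 0.00869) and limma-trend (adjusted p = 0.0446) also called it. It was not called with RLE scaling (adjusted p = 0.0583) or total counts alone (adjusted p = 0.0505) in the quasi-likelihood test. Upper quartile scaling did not call it either (same test, adjusted p = 0.0512). Its log2 fold change was 0.56 without control replicate 1 and 0.88 without control replicate 2. It was 0.92 without MYC-deficient replicate 1 and 0.49 without MYC-deficient replicate 2. With the replicate number as a block Dusp1 was also called (edgeR quasi-likelihood test, adjusted p = 0.00176). Its log2 fold change was positive in all alternatives run, from 0.49 to 0.92.

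Dusp4, the MKP-2 phosphatase, had the highest level per length of the 5 phosphatases. The control pair had 110.4 and 131 CPM and the MYC-deficient pair 136 and 169.5 CPM. The genotypes did not overlap, but the lower MYC-deficient library was only 1.04-fold above the higher MYC-WT library. At 0.37 on the log2 scale it did not pass (95% interval -0.05 to 0.79, edgeR quasi-likelihood test, adjusted p = 0.175). Dusp5, which acts on ERK alone and holds it in the nucleus, was at 15.3 and 19.4 CPM in the control pair and at 18.0 and 20.1 CPM in the MYC-deficient pair. The genotypes overlapped, and the log2 fold change of 0.17 had a 95% interval from -0.28 to 0.61 (same test, adjusted p = 0.54). An opposite-strand gene model overlaps Dusp5 in GENCODE M21, and no source used here gives the strand setting of the counts.

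Dusp6 (ENSMUSG00000019960), the cytoplasmic phosphatase specific for ERK also called MKP-3, is widely used as a readout of ERK activity. The control pair had 2409 and 1153 counts, or 72.5 and 39.6 CPM, and the MYC-deficient pair had 5198 and 2396 counts, or 145 and 87.0 CPM. Replicate 1 was 1.83-fold above replicate 2 in MYC-WT and 1.67-fold above it in MYC-deficient cells, and the genotypes did not overlap, with a ratio of 1.20 between the nearest libraries. Mean levels were 56.0 ± 23.3 CPM (SD, n = 2) and 116 ± 41.2 CPM (SD, n = 2). At 1.08 on the log2 scale it did not pass (SE 0.35, 95% interval 0.19 to 1.97, edgeR quasi-likelihood test, adjusted p = 0.0897). With the replicate number as a block it was called (same test, adjusted p = 0.00058), though no source says that equal numbers are paired. It was called without MYC-deficient replicate 2 (log2 fold change 1.39, adjusted p = 0.0144), with no filter (adjusted p = 5.39e-11), by the likelihood ratio test (adjusted p = 0.0174) and by DESeq2 (adjusted p = 0.00279), while the quasi-likelihood fits gave 0.71 (adjusted p = 0.135) without MYC-deficient replicate 1, 0.73 (adjusted p = 0.254) without control replicate 2 and 1.56 (adjusted p = 0.0593) without control replicate 1. DESeq2 called 18.9% and the likelihood ratio test 20.1% of the genes each tested, and by either of them 4 of the 10 genes were called, Dusp1, Dusp2, Dusp6 and Egr2. With no filter 3182 genes were called, against 2145 with it, while the log2 fold change of Dusp6 stayed at 1.08. The adjusted p of Egr2 likewise went from 0.0136 to 1.72e-13 in that quasi-likelihood fit. The p-values of the fit with no filter are thus not comparable with those of the filtered fit.

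The SPRED inhibitors, which bring the RAS GTPase-activating protein neurofibromin to the membrane, did not pass the test. Spred1 was at 549 and 466 CPM in the control pair and at 544 and 463 CPM in the MYC-deficient pair. The 2 replicate 1 libraries were alike and so were the 2 replicate 2 libraries. Its log2 fold change was 0.02 (95% interval -0.34 to 0.37, edgeR quasi-likelihood test, adjusted p = 0.945). The interval runs from 1.26-fold lower to 1.29-fold higher, and the value turned to -0.01 with scaling by total counts alone. Spred2 was at 52.3 and 61.0 CPM in the control pair and at 57.7 and 63.9 CPM in the MYC-deficient pair. Its genotypes overlapped as well, with a log2 fold change of 0.13 (95% interval -0.22 to 0.48, same test, adjusted p = 0.545).

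Ier3, also called IEX-1, is a small early-response protein induced by NF-kappaB and ERK signals. It was at 6.23 and 5.15 CPM in the control pair and at 6.82 and 5.66 CPM in the MYC-deficient pair, and the genotypes overlapped. Its log2 fold change was 0.16 with a 95% interval from -0.37 to 0.69 (edgeR quasi-likelihood test, adjusted p = 0.621). With 150 to 244 counts per library, the interval reaches 1.61-fold higher and 1.29-fold lower.

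**Figure D3:**
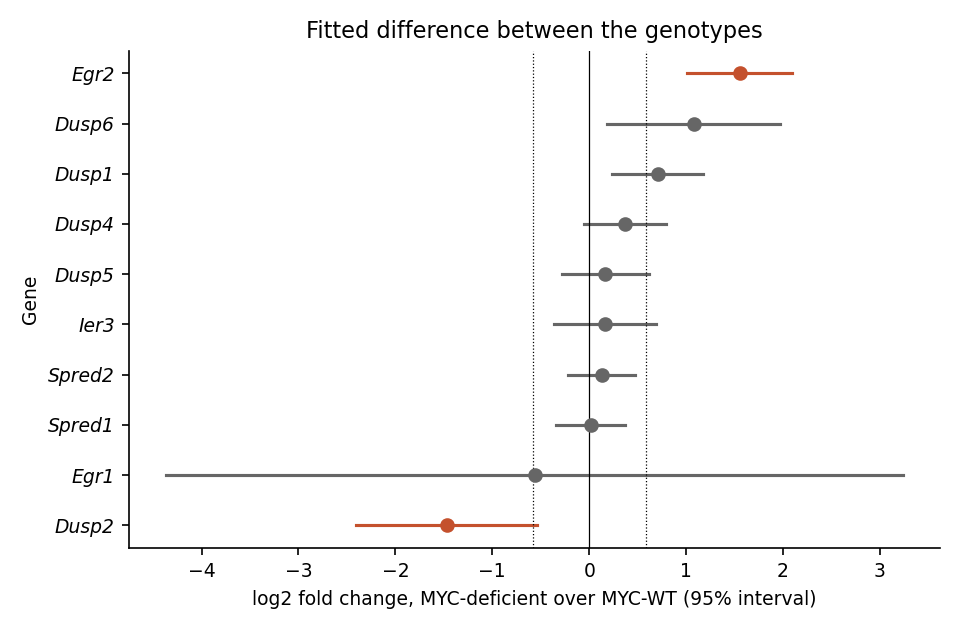
Log2 fold change of MYC-deficient over MYC-WT cells for each gene with its 95% interval from edgeR's quasi-likelihood fit, where colour marks the 2 called genes and dotted lines a 1.5-fold change. Egr2 at 1.55 lies wholly beyond the dotted line, Dusp2 at -1.47 reaches just inside it, and the interval of Egr1 spans -4.36 to 3.24.

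**Figure D4:**
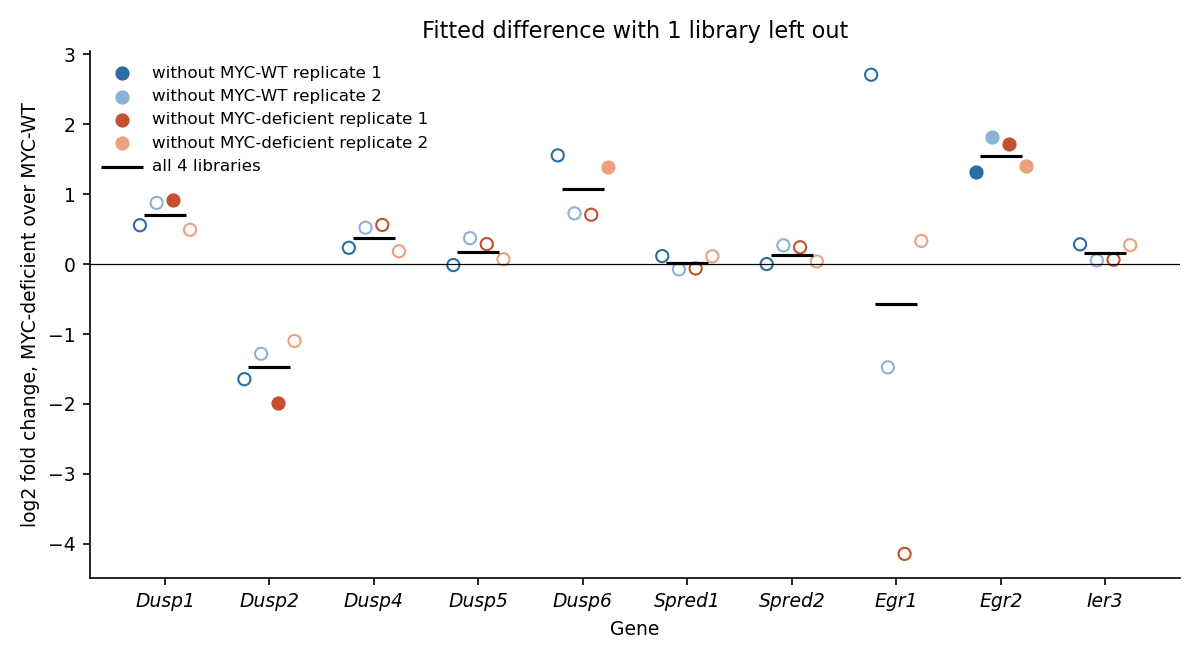
Log2 fold change of each gene with 1 library left out, coloured by the library, with filled circles where the gene was called and a black bar for all 4 libraries. Egr2 keeps 4 filled circles between 1.32 and 1.82, Dusp2 keeps 1, and Egr1 runs from -4.14 to 2.71.

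Per length, Spred1 was the most abundant of the 10 genes and Egr1 the least. Levels were compared as CPM per kilobase of exon. In MYC-WT cells the means were 74.8 for Spred1, 44.0 for Dusp4, 17.9 for Dusp6, 12.5 for Dusp1, 12.3 for Spred2, 7.00 for Dusp5, 5.03 for Ier3, 2.58 for Egr2, 2.50 for Dusp2 and 0.766 for Egr1. The replicates of Dusp6 and Dusp1, of Dusp1 and Spred2, and of Egr2 and Dusp2 overlapped, so these neighbours were not apart. In MYC-deficient cells the order of the 10 genes was the same except that Egr2, at 7.43, stood above Ier3, at 5.52, and its replicates overlapped those of Dusp5, at 7.72. There Dusp6, at 37.1, and Dusp1, at 20.1, no longer overlapped each other or Spred2, at 13.2. Dusp2, at 0.878, and Egr1, at 0.5, overlapped.

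Genes with the profile most like the 3 members of smallest p were sought over the 4 libraries among 8884 named genes whose mean log2 CPM was 3 or more. For Egr2 these were Pira2, H1f0 and Mical1, which differed from it by 0.0741, 0.0836 and 0.107 (root mean square difference of centred log2 CPM). Pira2, an activating receptor of myeloid cells, was at 43.2 and 61.2 CPM in the control pair and at 123 and 147 CPM in the MYC-deficient pair. For Dusp2 the nearest were Gbp3, Foxp4 and Ppif, at 0.178, 0.210 and 0.220, and for Dusp1 they were Lxn, Serpinb9 and Csf2rb2, at 0.0197, 0.0264 and 0.0275. The closest profile of Dusp2 was thus farther away than those of Egr2 and Dusp1. Dusp2 itself, with 33 to 162 counts per library, was below the cut at a log2 CPM of 1.78, so genes as low as it were not compared. Likeness over 4 libraries is a description.

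The rest of the pathway was described with 10 lists of 204 genes, of which 185 were tested. Of these 24 were higher, 9 were lower and 152 were not called, a share of 17.8% against 16.0% of all tested genes. The counts of each list below are to be read beside the 6.06% of all tested genes called higher and the 9.91% called lower. Among other dual-specificity and related MAP kinase phosphatases 1 of 13 was called, Dusp9, an ERK phosphatase, which fell from 17.4 and 18.2 CPM to 5.14 and 5.16 CPM (log2 fold change -1.76, edgeR quasi-likelihood test, adjusted p = 0.00759). With RLE or total count scaling 1 gene of this list was also called higher, and with upper quartile scaling 2. Dusp9 is the 1 gene of the lists that was called with every library left out in turn. Of 3 tested Sprouty and Spred genes, the receptor tyrosine kinase antagonist Spry1 fell by 1.77 on the log2 scale and Spred3 rose by 1.01, both at low levels of 0.363 to 5.19 CPM. Among 22 other negative regulators of RAS and ERK 4 were lower, namely Rin1, Rasal2, Pebp1, the RAF kinase inhibitor protein, and Erf, an ETS repressor that ERK exports from the nucleus, with log2 fold changes of -1.45, -1.05, -1.04 and -0.60. In these 3 lists of inhibitors the median log2 fold changes were 0.32, 0.71 and 0.21, beside -0.01 over all tested genes.

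The corepressor Nab2, which binds EGR factors and is itself induced by them, rose by 0.68 on the log2 scale. It was the 1 called gene of 2 tested in the list of EGR factors and corepressors, at 10.9 and 9.57 CPM in the control pair and 17.0 and 15.1 CPM in the MYC-deficient pair. Its call was lost with each library left out in turn, and a link to Egr2 was not tested. Of 43 other immediate-early genes 6 were higher, against 6.06% of all tested genes, and 37 were not called, with a median of 0.31. Other settings also called some lower, with 5 higher and 2 lower by total count scaling, 11 and 3 by DESeq2, and 9 and 3 by the likelihood ratio test. Among the 6 called genes the smallest adjusted p were those of Jun, a subunit of AP-1, the Krüppel-like factor Klf6, Ier5l and Btg2, an antiproliferative gene, which rose by 0.64, 0.73, 1.43 and 0.85 on the log2 scale. Of 16 ERK output genes 4 were higher, Etv5, Ets2, Emp1 and Bhlhe40, with log2 fold changes of 0.98, 0.75, 0.77 and 0.81, and 1 was lower, Odc1, the first enzyme of polyamine synthesis and a known MYC target, with -1.53.

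In the chain from RAS to ERK 3 of 27 genes were higher, against 6.06% of all tested genes, Rras, Mapk3, which encodes ERK1, and Map3k8, with log2 fold changes of 0.81, 0.70 and 0.71. Mapk3 was at 156 and 158 CPM in the control pair and at 231 and 269.6 CPM in the MYC-deficient pair. In the JNK and p38 chains Map3k5 was the 1 of 24, at 0.80, and among kinases and factors downstream of MAP kinases Elk3, an SRF partner, and Rps6ka2, a ribosomal S6 kinase, were the 2 of 15, at 0.60 and 0.98. No gene of these 3 lists was called lower by the quasi-likelihood test with TMM scaling and the filter, and DESeq2, the likelihood ratio test and the fit with no filter each called 1 lower in the JNK and p38 chains. Of 20 receptors, ligands, adaptors and kinases upstream 6 were higher and 2 were lower, the latter Src and Mst1r, at -1.38 and -1.95. Among the higher ones were Fcer1g and Syk, of ITAM signaling, and the ligand gene Pdgfa, at 0.90, 0.74 and 0.92.

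With a MYC-WT library left out fewer genes were called, both in these lists and over all tested genes, so this is not particular to the lists. Each such fit takes its spread between replicates from the other genotype alone. Nab2, Spred3, Erf and Map3k8 lost their call with each library left out in turn. Of the 33 called genes 11 kept their call when control replicate 1 was left out, 1 when control replicate 2 was, 25 when MYC-deficient replicate 1 was and 22 when MYC-deficient replicate 2 was. Summed macrophage markers moved the same way as the higher genes, and 4 of the 10 markers were called higher. Csf1r is both among these 4 markers and among the higher genes of the upstream receptor list, so the 2 are not separate. The part of the markers in these changes was not tested.

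**Figure D5:**
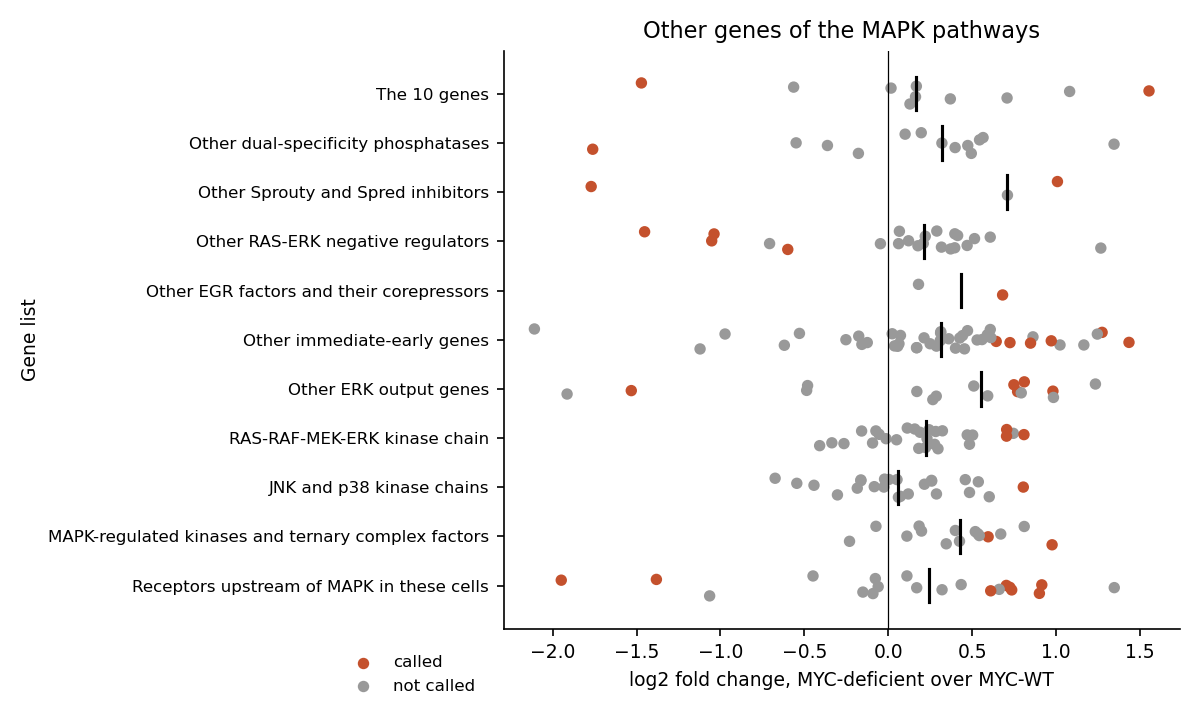
Log2 fold change of MYC-deficient over MYC-WT cells for each tested gene of the 10 genes and the 10 pathway lists, with called genes in colour and a bar at each list's median. Medians lie between 0.06 and 0.71, and among the called lower genes Dusp9 stands at -1.76 and Spry1 at -1.77.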

How the data were processed

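RNA-seq libraries of RANKL-treated BMDMs, 2 per genotype, were used. The authors deposited raw counts per gene for 28443 genes (4413 with no count), the same counts for 11109 genes they kept, which include all 10 genes followed here, and log2 CPM of those. Build mm10 and the tools STAR 2.7.3a, fastp, bcl2fastq 1.8.4 and edgeR stand in the submitters' processing notes. No source used here gives the counting tool, strand setting or annotation release, so reads shared by overlapping or similar genes cannot be followed.

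The comparison was fitted with edgeR 4.0.16 (R 4.3.3): filterByExpr (min.count 10, min.total.count 15), TMM scaling (factors 0.982 to 1.02), glmQLFit and glmQLFTest with 2 residual degrees of freedom, and Benjamini-Hochberg adjustment over 13436 genes. A call needed a fold change over 1.5 and an adjusted p below 0.05. Standard errors are the log2 fold change over the square root of F, and printed CPM use total counts. Exon lengths are unions of GENCODE M21 exons within the deposited gene bounds. Alternatives were RLE, upper quartile and total count scaling, no filter, the authors' genes, DESeq2 1.42.0, the likelihood ratio test, limma-trend (limma 3.58.1) on the deposited log2 CPM, other fold thresholds, the replicate number as a block, and each library left out.

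The 10 genes, the lists and the tests were chosen with earlier results of these data known. Lists are from general knowledge. Named genes are the 10, Myc, and in each list up to 4 called genes per direction by adjusted p, and the 3 genes nearest in profile to each of 3 members. Markers of other cell types and 3 genes with large replicate gaps were named after their values were seen. A gene that the rule names is not reported here.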

Additional observations from a re-analysis of the deposited data

How the results depend on the processing

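With 2 libraries per genotype, 2 calls were made among the 10 genes. RLE scaling left 1 (2063 called over all genes), while no filter (3182 over all genes), DESeq2 (2432) and the likelihood ratio test (2697) gave 4 each. Leaving out single libraries gave 1 to 3. Egr2 was called in every alternative run and Dusp2 in all but RLE scaling and 3 of the fits without a library. Among the lists 33 genes were called, 58 with no filter and 11 at a fold threshold of 2, and 1 to 43 with a library left out. Over all genes 2145 were called, 1038 at a fold threshold of 2 and 264 to 2159 with a library left out, lowest without MYC-WT replicate 2. The cause was not tested: leaving out either MYC-deficient library gave 2159 and 2130. The log2 fold change of Spred1 was -0.0115 with total counts alone and ran from -0.0748 to 0.12 over the fits without a library, that of Dusp5 from -0.013 to 0.37 and that of Egr1 from -4.14 to 2.71. Without division by length 5 of the 10 genes kept their rank of level in MYC-WT cells. Depth is lowest for Egr1 and Dusp2, with 5 to 217 and 33 to 162 counts per library.

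The labels give both genotypes the replicate numbers 1 and 2, but no source says that equal numbers share a mouse, litter or day. Deviations from the genotype means correlated at 0.499 between libraries of equal number. With the replicate block 4 of the 10 genes were called, Dusp1, Dusp2, Dusp6 and Egr2, with 57 genes of the lists and 3174 of all genes. Dusp1 had an adjusted p = 0.00176 and Dusp6 an adjusted p = 0.00058 in that quasi-likelihood fit. Egr1 was not called there, with a log2 fold change of -0.61 (adjusted p = 0.0728 in the same quasi-likelihood fit).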
